A study of Mus musculus with 12 samples.

Results

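Glul, Axin2, Lgr5, Oat, Slc1a2, Rhbg, Tbx3, Rnf43, Znrf3 and Slc13a3 are genes that hepatocytes next to the central vein express under Wnt signaling. They were chosen by name for that known role, and all 10 were found among the 41743 genes of the tables. They were measured as TPM (transcript abundance per gene, corrected for gene length and summing to 1000000 in each liver) in whole livers of 12 female mice aged 3-4 months, in 4 groups of 3. YAP1 KO mice, on a C57BL/6 background, lost Yap1 through Foxa3-Cre and carried a ROSA-stop-EYFP reporter. YKTH mice, on a mixed C57BL/6-FVB background, lost Yap1 and 1 copy of Wwtr1, the gene of TAZ, through the same Cre. Each model had its own WT littermates, WT (C57BL/6) and WT (mixed). Their floxed or Cre status is not given in the sources used here. Foxa3 drives Cre in the early foregut endoderm, so the deletion reached the precursors of both hepatocytes and bile duct cells and was not confined to the liver. Adult livers of both models have no bile ducts inside the liver, and YKTH males die around birth. Only females were measured. The comparisons ask what these pericentral genes did after loss of YAP, and whether this differed in the model that also lost a TAZ copy. That model has another strain background as well, so TAZ copy and strain cannot be told apart.

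In the liver lobule, endothelial cells of the central vein secrete Wnt2, Wnt9b and R-spondin 3. Nearby hepatocytes receive them through Frizzled and LRP receptors, R-spondin acts through LGR4 and LGR5, and stabilized β-catenin then works with TCF factors to switch on target genes. The targets serve different ends. Glul (glutamine synthetase), Oat (ornithine aminotransferase), Slc1a2 (the glutamate transporter GLT-1) and Rhbg (an ammonium transporter) belong to the pericentral handling of glutamate and ammonia. Axin2, Rnf43 and Znrf3 feed back on the pathway as inhibitors, Lgr5 is an R-spondin receptor, Tbx3 is a transcription factor, and Slc13a3 takes up dicarboxylates.

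The targeted gene was low in the mice labelled as knockouts. Yap1 was at 30.5, 30.4 and 28.2 TPM in WT (C57BL/6) mice LM75, LM192 and LM193 and at 3.72, 1.93 and 1.67 TPM in YAP1 KO mice LM74, LM189 and LM191. It was at 33.2, 32.3 and 31.0 TPM in WT (mixed) mice LM226, LM227 and LM230 and at 8.63, 9.20 and 11.5 TPM in YKTH mice LM225, LM250 and LM251. Wwtr1 was at 6.26-6.83 TPM in WT (C57BL/6), 13.3-16.7 TPM in YAP1 KO, 7.73-8.38 TPM in WT (mixed) and 11.5-14.1 TPM in YKTH. It was above WT in every knockout liver, YKTH included. By limma on scaled values, Yap1 fell by 3.51 and 1.93 on the log2 scale in YAP1 KO and YKTH (adjusted p = 7.98e-06 and 3.61e-05), and Wwtr1 had log2 fold changes of 0.73 and 0.26 (adjusted p = 0.00176 and 0.0743). The hepatocyte markers with a value, 7 of the 8 listed, summed to 98599-112630 TPM in WT (C57BL/6) against 87069-95325 in YAP1 KO. Their sum was 88815-113470 TPM in WT (mixed) against 85149-102350 in YKTH. In bulk tissue, fewer cells of a type and less RNA per cell cannot be told apart. Markers of other cell types also changed. Over all genes tested 18.8% were called higher and 18% lower in YAP1 KO, and 19.2% and 19% in YKTH. All 6 macrophage markers rose in both models, and their sum was 146-174 TPM in WT (C57BL/6) against 335-519 in YAP1 KO, and 122-238 TPM in WT (mixed) against 460-563 in YKTH. Of the 7 stellate cell and fibroblast markers, 3 rose and 1 fell in YAP1 KO, and 3 rose in YKTH, with sums of 165-189 against 315-392 TPM and 139-163 against 254-370 TPM. Those that rose were Pdgfrb, Dcn and Col1a1, and the 1 that fell was Lrat (-0.85, adjusted p = 0.00943, by limma). Des, Reln and Colec11 were called in neither model. Of the 5 cholangiocyte markers tested of 7, 2 rose in YAP1 KO, and in YKTH 2 rose and 1, Epcam, fell (it passed the filter only through the WT livers), with sums over the list of 36.7-64.3 against 336-759 TPM and 50.3-66.9 against 110-231 TPM. Krt7 and Cftr, which mark bile duct cells, did not pass the filter on low values. The part of these cell types in the results was not tested. Values were also scaled between livers by a trimmed mean of log ratios before testing. The factors were 1.08-1.23 in YAP1 KO against 0.857-0.908 in its WT, and 1.07-1.18 in YKTH against 0.858-0.947. Such a factor shifts all genes of a liver together and does not correct for a change in the mix of cells. Without this scaling the median log2 change over all genes was 0.28 and 0.24, against -0.04 in both models with it, and the share of higher genes among all called was 84% and 82.2%, against 51.1% and 50.2%.

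In WT livers the 10 genes spanned a wide range of levels. Oat was the highest, at 1160 ± 73.0 TPM in WT (C57BL/6) and 1359 ± 291 TPM in WT (mixed) (mean ± SD, n = 3 each here and below). Glul followed at 837 ± 208 and 774 ± 38.2 TPM, and Slc1a2 at 54.1 ± 13.9 and 52.2 ± 7.68 TPM. Slc13a3 (18.2 ± 1.51 and 15.9 ± 0.427), Tbx3 (15.7 ± 3.08 and 14.9 ± 5.53), Rhbg (15.5 ± 3.80 and 16.0 ± 3.14) and Rnf43 (13.0 ± 4.08 and 16.4 ± 4.63) came next and did not separate from each other beyond their spread. Axin2 (4.00 ± 0.339 and 4.70 ± 1.40), Znrf3 (3.83 ± 0.436 and 3.53 ± 1.19) and Lgr5 (3.34 ± 0.596 and 3.80 ± 1.96) were the lowest and likewise overlapped. None of the 10 differed between the WT groups by limma at an adjusted p under 0.05, where over all genes 0.171% were called higher and 0.0449% lower in WT (mixed). None of the 10 had an unadjusted p under 0.05, which over all 11126 genes 310 higher and 339 lower had. The nearest was Slc13a3, at a log2 difference of -0.24 (95% interval -0.49 to 0.0099, unadjusted p = 0.0577, adjusted p = 0.871).

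**Figure D1:**
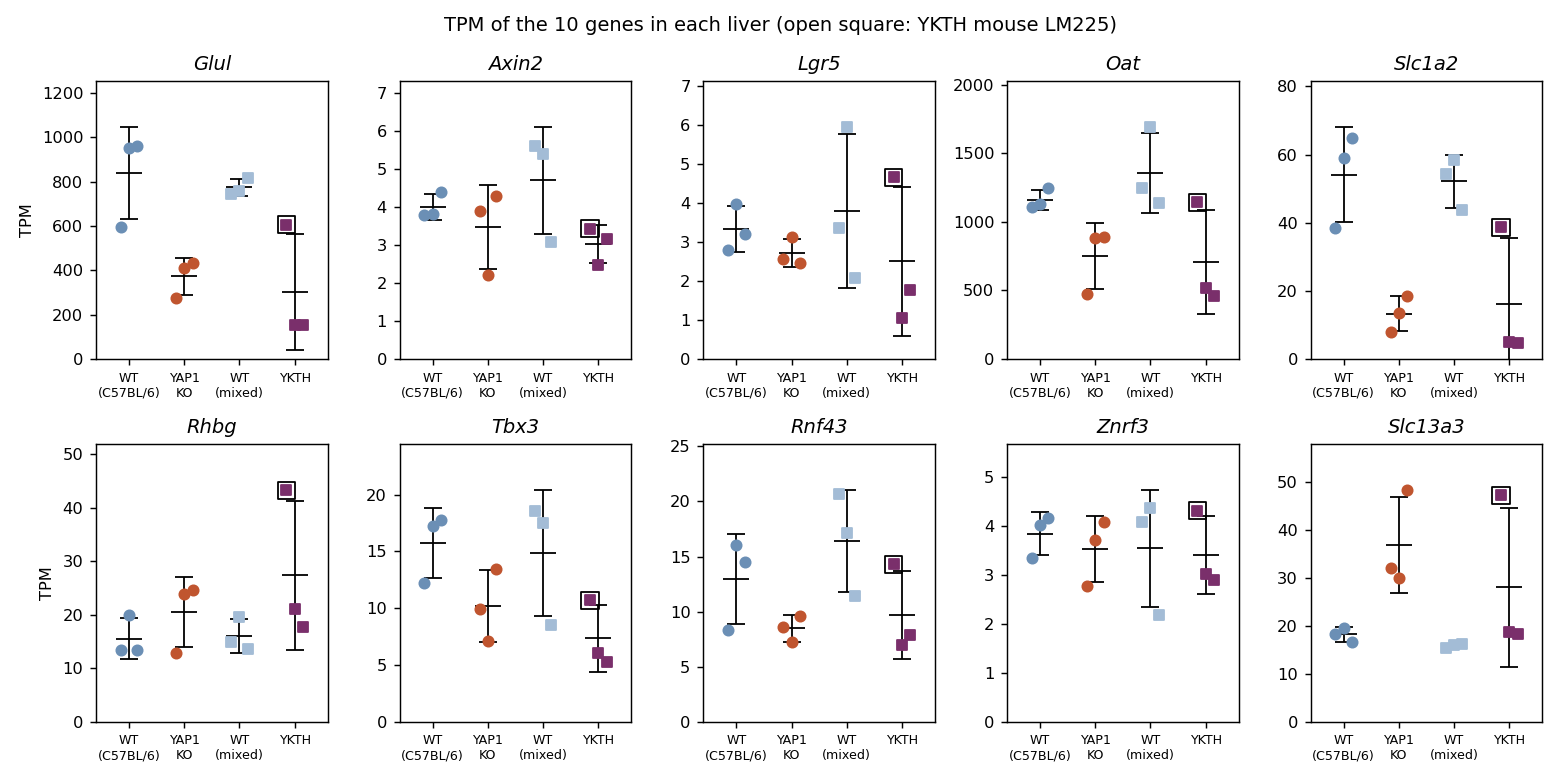
TPM (linear axes from 0) of each of the 10 genes in each of the 12 livers, with the mean (wide bar) and SD (caps; the lower arm for Slc1a2 in YKTH runs below 0 and is cut there). Slc1a2 and Glul lie below the livers of their own WT group in all 6 knockout livers, and the YKTH mouse LM225, marked by an open square, sits apart from its group mates for Glul, Slc1a2, Oat, Rhbg and Slc13a3.

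The 3 genes with the largest falls were Slc1a2, Glul and Oat. The 250 bases before a RefSeq start site of each (GRCm38.p6, read 5′ to 3′ along the gene) are shown because these genes moved together, with letters that match a TCF/LEF or TEAD motif in capitals. The TCF/LEF motif was searched as CTTTGAA and as CTTTGAT, with the same ending in TA (CTTTGTA) and in TT (CTTTGTT) also accepted, and the TEAD motif as CATTCC, each on both strands. TCF/LEF factors carry β-catenin, and TEAD factors carry YAP and TAZ.
Slc1a2, chr2:102706188-102706437, + strand: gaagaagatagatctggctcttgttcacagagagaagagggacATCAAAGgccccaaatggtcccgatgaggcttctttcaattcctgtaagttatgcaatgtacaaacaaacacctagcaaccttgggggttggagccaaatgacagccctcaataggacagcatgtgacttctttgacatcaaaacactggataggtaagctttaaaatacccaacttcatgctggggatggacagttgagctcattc
Glul, chr1:153899679-153899928, + strand: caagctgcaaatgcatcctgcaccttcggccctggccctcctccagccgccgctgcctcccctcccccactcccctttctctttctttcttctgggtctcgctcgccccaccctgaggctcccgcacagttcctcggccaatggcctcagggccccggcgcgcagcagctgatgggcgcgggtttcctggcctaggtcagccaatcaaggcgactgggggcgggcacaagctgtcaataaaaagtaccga
Oat, chr7:132576399-132576648, - strand: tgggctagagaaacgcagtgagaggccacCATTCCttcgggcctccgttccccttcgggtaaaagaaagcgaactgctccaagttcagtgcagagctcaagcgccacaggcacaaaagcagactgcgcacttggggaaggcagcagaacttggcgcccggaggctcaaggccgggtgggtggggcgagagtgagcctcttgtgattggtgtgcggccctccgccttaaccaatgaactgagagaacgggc
The window of Slc1a2 holds 1 TCF/LEF match, the reverse complement of CTTTGAT, starting 207 bases before the start site. That of Oat holds 1 TEAD match, 221 bases before the start site, and that of Glul holds neither. The 2 matches do not overlap another motif. Promoters were at hand for 6 of the 10 genes, in 7 windows with 2 for Rnf43, and no other window held either motif. Among all 32851 promoter windows of this length, 14.8% hold the TCF/LEF letters and 12.6% the TEAD letters. The start used for Slc1a2 lies inside the gene, and 29 bases of its window are an exon of another Slc1a2 transcript. The Glul window lies within an exon of a Teddm2 transcript with a retained intron, on the opposite strand.

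Slc1a2 (chromosome 2, 102658659-102790784, GRCm38) fell the most in both models. It was at 38.4, 59.1 and 64.8 TPM in WT (C57BL/6) and at 7.99, 13.6 and 18.4 TPM in YAP1 KO mice LM74, LM189 and LM191. It was at 54.3, 58.5 and 43.6 TPM in WT (mixed) and at 38.6, 5.003 and 4.84 TPM in YKTH mice LM225, LM250 and LM251. Every knockout liver lay below every liver of its WT group, but LM225 was close to the lowest WT liver while its 2 group mates were far below. The log2 fold change was -2.32 (SE 0.31, adjusted p = 0.000931) in YAP1 KO and -2.55 (SE 0.62, adjusted p = 0.0130) in YKTH, by limma. Without LM225 the YKTH value was -3.41 (adjusted p = 5.10e-06). Here and below, LM225 was singled out after its values were seen.

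Glul (chromosome 1, 153899944-153909723) makes glutamine from glutamate and ammonia. It was at 597, 952 and 962 TPM in WT (C57BL/6) and at 277, 410 and 433 TPM in YAP1 KO. It was at 745, 760 and 818 TPM in WT (mixed) and at 606, 152 and 154 TPM in YKTH mice LM225, LM250 and LM251. The groups did not overlap in either model, which the exact two-sided permutation test gives its smallest possible p, 0.1. Glul fell by 1.52 on the log2 scale (SE 0.25, adjusted p = 0.00243) in YAP1 KO and by 1.99 (SE 0.45, adjusted p = 0.00912) in YKTH, by limma, and by 2.62 (adjusted p = 1.18e-05) in YKTH without LM225. Reads of Glul can be shared with the near copies Glns-ps1 and AC134576.3, whose transcripts match 40.3% and 40.2% of its length at 96.8% and 93.0% identity. The gene Teddm2, listed at 0-0.659 TPM, overlaps the start of Glul on the opposite strand.

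Oat (chromosome 7, 132557478-132576398) turns ornithine toward glutamate. It was at 1109, 1128 and 1244 TPM in WT (C57BL/6) and at 471, 883 and 892 TPM in YAP1 KO. It was at 1247, 1689 and 1140 TPM in WT (mixed) and at 1142, 517 and 458 TPM in YKTH. All YAP1 KO livers lay below their WT, whereas the YKTH liver LM225 was within the WT range. The log2 fold change was -1.05 (SE 0.27, adjusted p = 0.0184) in YAP1 KO and -1.37 (SE 0.31, adjusted p = 0.00893) in YKTH, by limma, and -1.75 (adjusted p = 0.000444) without LM225. In YAP1 KO the call was lost without WT mouse LM193 (log2 fold change -0.998, adjusted p = 0.0584), and without LM74 the value was -0.69 (adjusted p = 0.00319). With quantile normalization in place of the scaling the call was lost in both models (-0.64, adjusted p = 0.0739 in YAP1 KO, and -0.93, adjusted p = 0.0551 in YKTH).

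Rhbg (chromosome 3, 88242874-88254709), an ammonium transporter that shares the pericentral rim with Glul, passed the threshold in neither model. It was at 13.4, 19.9 and 13.3 TPM in WT (C57BL/6), at 12.9, 23.9 and 24.6 TPM in YAP1 KO, at 14.9, 19.5 and 13.6 TPM in WT (mixed) and at 43.3, 21.1 and 17.6 TPM in YKTH. LM225 had the highest level of the 12 livers. LM189, LM191 and LM250 also lay above all livers of their own WT group in TPM, whereas LM74 and LM251 did not. The log2 fold change was 0.0043 (95% interval -0.64 to 0.65, adjusted p = 0.993) in YAP1 KO, where its sign turned with 1 liver left out or with all 12 livers in 1 fit, and 0.34 (-0.30 to 0.98, adjusted p = 0.366) in YKTH, by limma. It was 0.0014 in YKTH without LM225. The transcript Gm38392 matches 61.6% of the length of Rhbg at 99.9% identity and overlaps it on the same strand, so reads of the 2 may be split between them. Gm38392 was listed at 0-1.09 TPM in the 6 WT livers and at 0-7.18 TPM in the 6 knockout livers.

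The set holds 3 feedback inhibitors, whose changes were not tested against each other. Rnf43 and Znrf3 are ubiquitin ligases that remove Frizzled from the cell surface, and Axin2 is a scaffold of the complex that destroys β-catenin. Rnf43 (chromosome 11, 87662722-87735539) was at 8.35, 16.0 and 14.5 TPM in WT (C57BL/6), at 8.57, 7.21 and 9.62 TPM in YAP1 KO, at 20.6, 17.1 and 11.5 TPM in WT (mixed) and at 14.3, 6.97 and 7.89 TPM in YKTH. Both models overlapped WT in TPM, through WT mouse LM75 in one and through LM225 in the other. The log2 fold change of scaled values was -0.85 (SE 0.22, adjusted p = 0.0168) in YAP1 KO and -1.02 (SE 0.24, adjusted p = 0.0122) in YKTH, by limma. In YAP1 KO the call was lost without LM74 (adjusted p = 0.0539), LM189 (0.0553), LM192 (0.0578) or LM193 (0.0605), with log2 fold changes from -0.81 to -0.70, and without scaling it was lost in both models (adjusted p = 0.0975 and 0.0638). Axin2 (chromosome 11, 108920349-108950783) was at 3.79, 3.81 and 4.39 TPM in WT (C57BL/6), at 3.89, 2.21 and 4.29 TPM in YAP1 KO, at 5.61, 5.41 and 3.09 TPM in WT (mixed) and at 3.43, 2.47 and 3.16 TPM in YKTH. Its groups overlapped in both models. The log2 fold change was -0.48 (SE 0.19, adjusted p = 0.0811) in YAP1 KO, where it passed the threshold without LM191 (-0.63, adjusted p = 0.0424) or with quantile normalization (-0.64, adjusted p = 0.0292) and was -0.29 without LM189 (adjusted p = 0.210), and -0.73 (SE 0.19, adjusted p = 0.0176) in YKTH, by limma. The YKTH call was lost without LM226 (adjusted p = 0.0616), LM227 (0.0608) or LM250 (0.0659), with log2 fold changes from -0.64 to -0.62, and without scaling (-0.48, adjusted p = 0.0972). Znrf3 (chromosome 11, 5276324-5444847) was at 3.34-4.16 TPM in WT (C57BL/6), 2.77-4.07 TPM in YAP1 KO, 2.17-4.36 TPM in WT (mixed) and 2.89-4.31 TPM in YKTH. It passed the threshold in neither model (log2 fold change -0.39, 95% interval -0.78 to 0.0065, adjusted p = 0.112, and -0.27, -0.75 to 0.21, adjusted p = 0.347, by limma).

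The receptor Lgr5 (chromosome 10, 115450311-115587780) was at 2.81, 3.98 and 3.22 TPM in WT (C57BL/6), at 2.56, 3.12 and 2.46 TPM in YAP1 KO, at 3.36, 5.95 and 2.09 TPM in WT (mixed) and at 4.67, 1.06 and 1.78 TPM in YKTH. LM250 and LM251 lay below all WT livers, while LM225 was above 2 of its 3 WT livers. The log2 fold change was -0.49 (SE 0.16, adjusted p = 0.0402) in YAP1 KO, by limma, a call that was lost without LM74 (adjusted p = 0.116), LM191 (0.111), LM192 (0.130) or LM193 (0.0875), with log2 fold changes from -0.50 to -0.40, and without scaling (-0.22, adjusted p = 0.308). It was also lost with no filter on low values (adjusted p = 0.0661) and with all 12 livers in 1 fit (adjusted p = 0.243). In YKTH it was -0.74 (SE 0.38, adjusted p = 0.160), and -1.11 (adjusted p = 0.0327) without LM225. Tbx3 (chromosome 5, 119670669-119684724), a transcription factor of the pericentral zone, was at 12.2, 17.2 and 17.8 TPM in WT (C57BL/6), at 9.97, 7.14 and 13.5 TPM in YAP1 KO, at 18.6, 17.5 and 8.51 TPM in WT (mixed) and at 10.7, 6.03 and 5.26 TPM in YKTH. It overlapped WT by 1 liver in each model, and fell by 0.93 on the log2 scale (SE 0.22, adjusted p = 0.0118) in YAP1 KO and by 1.21 (SE 0.29, adjusted p = 0.0121) in YKTH, by limma. Without scaling the value in YAP1 KO missed the threshold (-0.60, adjusted p = 0.0620).

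Slc13a3 (chromosome 2, 165405028-165473230), a sodium-coupled carrier of succinate and related dicarboxylates, moved the other way. It was at 18.4, 19.6 and 16.6 TPM in WT (C57BL/6) and at 32.1, 30.1 and 48.3 TPM in YAP1 KO. It was at 15.4, 16.1 and 16.2 TPM in WT (mixed) and at 47.2, 18.6 and 18.3 TPM in YKTH. TPM values of all 6 knockout livers were above those of their WT, but in YKTH only LM225 was far above. Slc13a3 rose by 0.60 on the log2 scale (SE 0.19, adjusted p = 0.0383) in YAP1 KO, by limma, and by 0.95 (adjusted p = 0.00342) without scaling. The call was lost without LM75 (adjusted p = 0.0621), LM191 (0.0627), LM192 (0.0774) or LM193 (0.113), with log2 fold changes from 0.37 to 0.64, with no filter on low values (adjusted p = 0.0664) and with all 12 livers in 1 fit (adjusted p = 0.109). In YKTH the log2 fold change was 0.34 (SE 0.29, adjusted p = 0.402), and it was -0.064 without LM225.

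**Figure D2:**
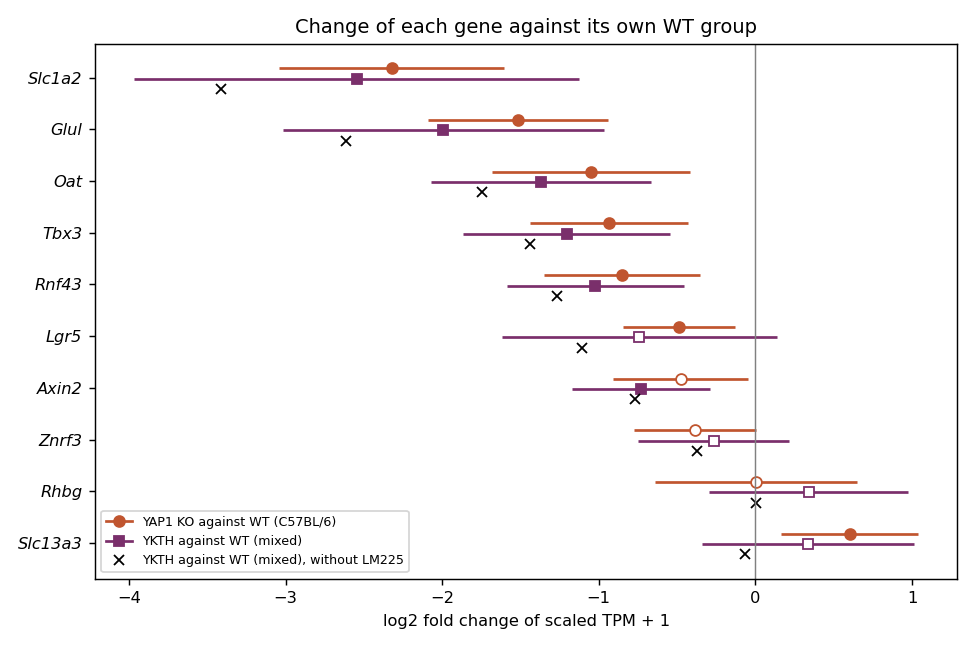
Log2 fold change of scaled TPM + 1 for each gene in YAP1 KO (circles) and YKTH (squares) against their own WT groups, with 95% intervals; filled symbols passed an adjusted p of 0.05 by limma, and crosses give YKTH without LM225. Slc1a2, Glul and Oat lie farthest to the left in both models, and leaving out LM225 moves Slc1a2 to -3.41 and Slc13a3 to -0.064.

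In all, 7 of the 10 genes passed the threshold in YAP1 KO, 6 lower and Slc13a3 higher, where 18% of all 11704 genes tested were called lower and 18.8% higher. In YKTH 6 of 10 passed, each of them lower, where 19% of 11741 genes were called lower and 19.2% higher. Without LM225 it was 7 of 10, each lower. In YAP1 KO the count was 4 without WT mouse LM192, 3 without WT mouse LM193 and 4 without scaling, and it was 5 with no filter or with all 12 livers in 1 fit. The median log2 fold change of the 10 genes was -0.67 in YAP1 KO and -0.88 in YKTH, beside -0.04 over all genes tested in each. Glul, Slc1a2, Oat, Tbx3 and Rnf43 were called lower in both. The difference between the models' fold changes (YAP1 KO minus YKTH) was past the threshold for none of the 10 by limma, where over 12159 genes 0.0247% were called higher and 0.0411% lower. None of the 10 had an unadjusted p under 0.05, which 279 higher and 278 lower of all genes had. The lowest unadjusted p was 0.404, for Axin2. The intervals were wide. That of Glul ran from -0.80 to 1.74 around a difference of 0.47, and that of Slc1a2 from -1.51 to 1.94 around 0.22. The 2 models were thus neither shown to differ nor shown to act alike in these genes. They also differ in strain background and, as described, in the reporter, which cannot be told apart from the TAZ copy. The fall of Yap1 itself differed between the models (log2 difference -1.59, adjusted p = 0.0326, by limma). Its mean TPM was at 0.082 of the WT mean in YAP1 KO and at 0.304 in YKTH. This difference cannot be told apart from the TAZ copy either.

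The spread within YKTH followed the same genes. Each knockout liver can be set against the mean of its WT group on the log2 scale, with all 12 livers scaled together. Slc1a2 was then at -0.81 in LM225 against -3.41 in LM250 and -3.42 in LM251, Glul at -0.76 against -2.64 and -2.59, and Oat at -0.63 against -1.67 and -1.82. Lgr5 was at 0.00 in LM225 against -1.33 and -0.90. Axin2 differed little, at -0.65 against -0.91 and -0.63. In the opposite direction, LM225 was at 1.01 for Rhbg against 0.11 and -0.11, and at 1.12 for Slc13a3 against -0.07 and -0.06. Of the 7 genes called lower from LM250 and LM251 alone, LM225 was nearer to the WT mean than to its group mates for 5. The same held for 20.7% of the 2206 genes of all kinds called lower that way, and for 19% of the 1863 called higher. For the other YKTH livers left out in turn the share among lower genes was 5.57% (LM250) and 3.34% (LM251). For the YAP1 KO livers it was 9.57% (LM74), 9.49% (LM189) and 9.9% (LM191). The Yap1 level of LM225 was the lowest of the YKTH livers. Its Cyp2e1, at 2416 TPM against 1094 and 1236 in its mates, was far below the WT (mixed) range of 6273-9250 TPM. Some other pericentral genes shared the pattern of the 10. Of 16 called from LM250 and LM251 alone, LM225 was nearer to WT for 5 (Cyp2a5, Cyp7a1, Gulo, Lhpp and Slc22a3). That stands beside the 20.7% and 19% over all genes. For the rest of the 16, LM225 was nearer to its mates. Cyp2a5 was at 2204 TPM in LM225, within the WT (mixed) range of 1679-2920 TPM, against 863 and 612 TPM in its mates. LM225 had a mean correlation of 0.981 with its mates, with 100 of 12159 genes over 2-fold above both mates and 62 below. Livers of YAP1 KO lay about as far from their mates by this measure. LM74 had a correlation of 0.981, with 31 genes above and 96 below, and LM189 had 0.982, with 97 above and 12 below. The mouse numbers LM250 and LM251 also lie apart from LM225 to LM230. The labels do not say what the numbers stand for. Set against WT within the numbers LM225 to LM230, which leaves LM225 as the only YKTH liver with controls, Glul (-0.75, adjusted p = 0.0132) and Slc1a2 (-0.81, adjusted p = 0.0146) were lower and Slc13a3 (1.13, adjusted p = 0.00198) and Rhbg (1.01, adjusted p = 0.0152) higher by limma, with Oat, Tbx3, Rnf43 and Axin2 past no threshold and the sign of Lgr5 turned (0.00095). This rests on a single knockout liver, assumed to vary like the rest.

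**Figure D3:**
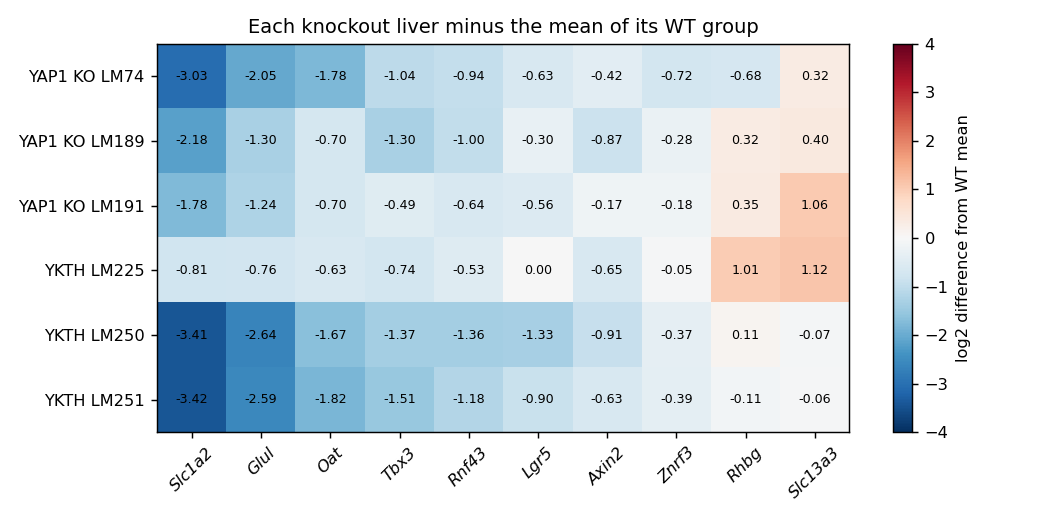
Log2 difference of each of the 6 knockout livers (rows) from the mean of its WT group, for the 10 genes (columns), with the value in each cell; blue is below WT and red above. LM225 is paler than LM250 and LM251 for Slc1a2, Glul, Oat and Lgr5, and redder for Rhbg and Slc13a3.

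Within groups, the 10 genes' deviations were compared pair by pair, as a description. After each gene's group means were taken out, all 45 pairs had a positive correlation over the 12 livers, with a median r of 0.67, from 0.051 to 0.97. These livers share their scaling, and LM225 carries part of it: over the 11 livers without it, 43 of 45 were positive and the median was 0.57. Over all pairs of the 12159 genes under the same scaling and centring, 50.2% were positive, with a median r of 0.0017. Glul went with Slc1a2 (r = 0.97) and Oat (0.83), Oat with Rhbg (0.92), Tbx3 with Rnf43 (0.87) and Axin2 with Tbx3 (0.80), whereas Glul and Axin2 went little together (0.054). Correlations of levels, unlike those of deviations, still hold the differences between knockout and WT. By levels, Glul had r = 0.984 with Slc1a2 and 0.940 with Oat. The 5 genes outside the set whose levels were most like Glul, of 12149 compared over the 12 livers, were Alas1 (r = 0.970), the rate-limiting enzyme of heme synthesis, Coq10b (0.969), Creb3l3 (0.964), a transcription factor of hepatic lipid metabolism, Hmgb1 (0.959), a chromatin protein, and Tom1l1 (0.959). Alas1 was at 269 TPM in LM225 against 49.9 and 46.5 TPM in LM250 and LM251, and at 315-396 TPM in WT (mixed). Its log2 fold change was -2.40 (adjusted p = 0.0106) in YKTH and -1.53 (adjusted p = 0.0525) in YAP1 KO, by limma.

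Upstream of these targets, no Wnt or R-spondin ligand gene tested was called lower in either model, but some of them could only be called higher. Of 23 ligand genes, 6 passed the filter on low values in YAP1 KO and 7 in YKTH. Over all genes tested 18% were called lower in YAP1 KO and 19% in YKTH. With so few ligands tested, the lack of a lower call says little about the ligands. Wnt4 and Wnt5a rose in both models (log2 fold change 1.02 and 0.66 in YAP1 KO, 0.98 and 0.80 in YKTH), and Wnt9b and Wnt10a rose in YKTH. Wnt9b, made by the central vein, was at 0.451-0.892 TPM in WT (C57BL/6) and 1.10-1.46 TPM in YAP1 KO (log2 fold change 0.35, adjusted p = 0.151), and at 0.528-0.941 TPM in WT (mixed) and 1.90, 3.88 and 4.12 TPM in YKTH mice LM225, LM250 and LM251 (1.12, adjusted p = 0.00764). Wnt10a, named here because few ligands were called, was listed at 0 in the 3 WT (mixed) livers and at 20.9, 2.95 and 3.20 TPM in YKTH. Wnt10a in YKTH, and Wnt9b and Wnt5a in both models, were under 1 TPM in every WT liver. They passed the filter only through the knockout livers and could only be called higher. Without LM225, Wnt9b no longer passed the filter in YKTH. Rspo3, the R-spondin of the central vein, had a log2 fold change of -0.20 (adjusted p = 0.340) in YAP1 KO and 0.33 (adjusted p = 0.199) in YKTH. Wnt2 was at 0.062 (adjusted p = 0.830) and 0.11 (adjusted p = 0.801). These 2 ligands also set LM225 apart. Wnt2 was at 2.16 TPM in LM225 and 6.62 and 5.82 TPM in LM250 and LM251, against 3.14-3.42 TPM in WT (mixed), and Rspo3 at 4.18 against 5.56 and 6.64 TPM, with 2.87-3.70 TPM in WT (mixed). The YKTH livers with the lowest Glul had the higher Wnt2, Rspo3 and Wnt9b. Without LM225, Wnt2 and Rspo3 passed the threshold as higher in YKTH (Wnt2 0.52, adjusted p = 0.0199, and Rspo3 0.50, adjusted p = 0.0446, by limma). LM225 was singled out after its values were seen and had the lowest Wnt2 and Rspo3 of the YKTH livers. Leaving it out favors a call as higher, so these 2 calls do not show a rise. Among the 6 central vein endothelial markers, which include these 3 ligands, 1 rose in YAP1 KO, and that was Thbd (1.37, adjusted p = 0.00182), and in YKTH Thbd (1.46, adjusted p = 0.00160) and Wnt9b rose. None fell.

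Among 17 receptors and co-receptors, 11 were tested. In YAP1 KO 1 rose and 3 fell, and in YKTH 2 rose and 2 fell. The background for each list is the share over all genes tested. That was 18.8% called higher and 18% lower in YAP1 KO, and 19.2% and 19% in YKTH. The Frizzled gene Fzd8 fell by 1.77 and 1.81 on the log2 scale in YAP1 KO and YKTH, and Fzd4 by 0.62 in each, while the co-receptor Lrp5 rose by 0.93 and 0.88. Lrp5 was at 10.7-13.7 TPM in WT (C57BL/6) and 28.6-31.3 TPM in YAP1 KO, and at 9.99-14.6 TPM in WT (mixed) and 27.2-29.8 TPM in YKTH. Lgr4, the R-spondin receptor found on most hepatocytes, passed the threshold in neither (-0.22, adjusted p = 0.313, and -0.18, adjusted p = 0.212). Among 20 genes of Wnt secretion, the destruction complex and the nuclear step, 18 were tested, and 2 rose (Wls, Gsk3b) and 1 fell (Porcn) in YAP1 KO, against 1 (Bcl9) and 2 (Gsk3a, Pygo2) in YKTH. These names are given because the counts are small. Ctnnb1, the gene of β-catenin, was at 0.063 (adjusted p = 0.644) and 0.077 (adjusted p = 0.604), and Tcf7l2, the main TCF gene of hepatocytes, at -0.28 (adjusted p = 0.197) and -0.18 (adjusted p = 0.220).

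The Wnt inhibitors split. Of 18, 6 were tested, and in each model 2 rose and 3 fell. Dkk3 and Frzb, both secreted, rose by 2.02 and 1.89 in YAP1 KO and by 1.57 and 2.08 in YKTH on the log2 scale, where Frzb passed the filter in YKTH only through the knockout livers. Notum, an enzyme that strips Wnt of its lipid and is itself a pericentral Wnt target, fell by 1.52 and 1.48, and Nkd1, a cytoplasmic feedback inhibitor, by 1.01 and 0.94. Notum was at 40.8, 64.0 and 69.8 TPM in WT (C57BL/6), 18.7, 27.4 and 29.2 TPM in YAP1 KO, 52.3, 83.1 and 47.7 TPM in WT (mixed) and 30.9, 26.6 and 20.9 TPM in YKTH. Its groups did not overlap in either model, and LM225 was close to its mates. Of 8 other Wnt targets, which include Notum and Nkd1, 7 were tested, and 1 rose and 3 fell in each model. Sp5, a transcription factor that Wnt induces in many tissues, fell by 1.14 (adjusted p = 0.000831) in YAP1 KO and had a log2 fold change of -0.68 (adjusted p = 0.0527) in YKTH. Myc rose by 2.15 and 1.68.

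**Figure D4:**
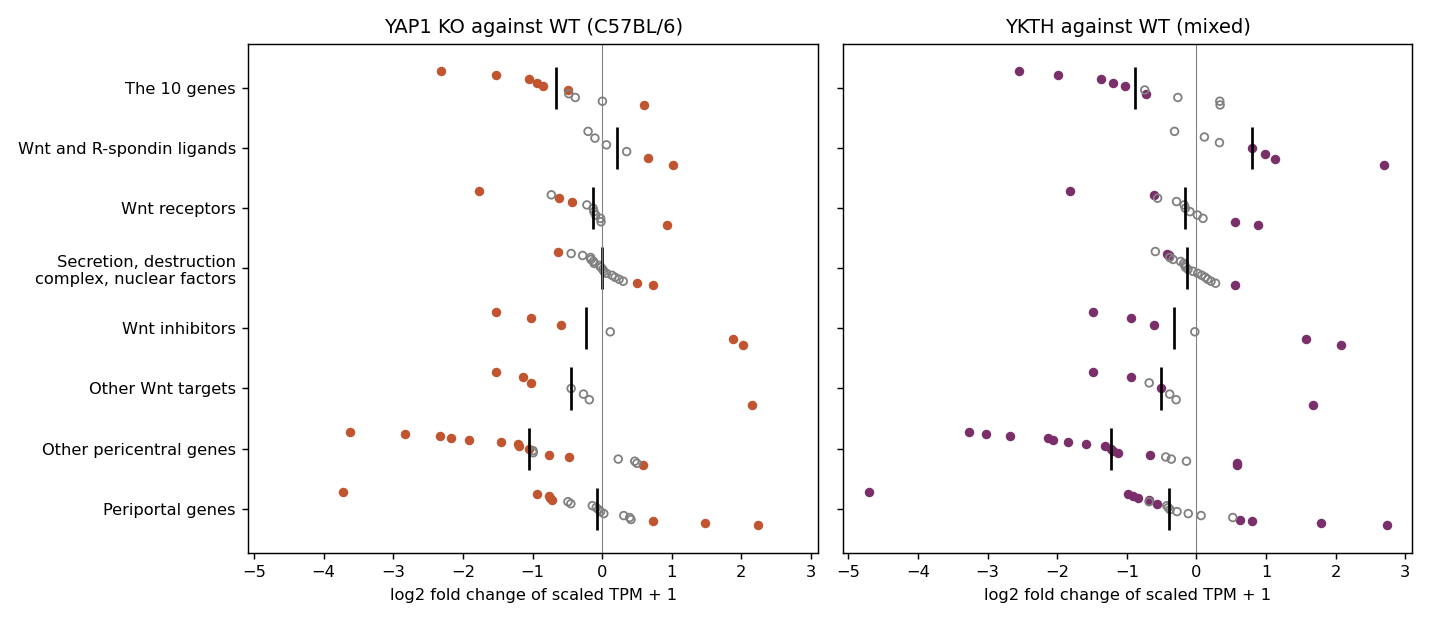
Log2 fold changes of scaled TPM + 1 for the tested genes of each list in YAP1 KO (left) and YKTH (right); filled points passed an adjusted p of 0.05 by limma, open points did not, and bars mark each list's median. The 10 genes (median -0.67 and -0.88) and the other pericentral genes (-1.05 and -1.23) lie to the left. No ligand called lies left of 0, but few ligands were tested and some of them could only be called higher.

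Pericentral genes outside the set were mostly called lower as well. Of 17, all tested, 11 fell and 1 rose in YAP1 KO, with a median log2 fold change of -1.05, and 12 fell and 2 rose in YKTH, with a median of -1.23. Cyp2e1 and Cyp1a2, pericentral cytochromes that metabolize ethanol and caffeine among others, had log2 fold changes of -2.83 and -1.45 in YAP1 KO and of -2.68 and -2.05 in YKTH, all past the threshold. Cyp2c37 fell by 3.62 and 3.27, Cyp2c50 by 2.17 and 3.02, and Nr1i3, the nuclear receptor CAR, by 2.32 and 1.85. Few rose: Cldn2, a tight junction protein, by 0.59 and 0.58, and Avpr1a, a vasopressin receptor, by 0.58 in YKTH. Of 18 periportal genes, all tested, 3 rose and 5 fell in YAP1 KO (median -0.07), and 4 rose and 6 fell in YKTH (median -0.39). Over all genes tested 18.8% were called higher and 18% lower in YAP1 KO, and 19.2% and 19% in YKTH. Cyp2f2 fell by 3.73 and 4.71, and Asl of the urea cycle by 0.77 and 0.84. Cdh1 (E-cadherin) rose by 2.24 and 2.73, and Apoa4 by 1.48 and 1.79. Cps1, the entry enzyme of the urea cycle, was at 0.025 (adjusted p = 0.944) and -0.12 (adjusted p = 0.632), and Ass1 at -0.023 (adjusted p = 0.960) and -0.43 (adjusted p = 0.0741). Gls2, the liver glutaminase of the periportal zone that frees the ammonia Glul later fixes, fell by 0.73 (adjusted p = 0.0399) and 0.68 (adjusted p = 0.0174).

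Partners and paralogues of the 10 genes changed in both directions. Of 21, 14 were tested in YAP1 KO and 4 rose and 4 fell, and 15 were tested in YKTH and 6 rose and 6 fell. Shares over all genes tested were 18.8% higher and 18% lower in YAP1 KO, and 19.2% and 19% in YKTH. Slc13a5, the citrate carrier of the family of Slc13a3, rose by 2.67 in each model on the log2 scale, from 0.765-0.994 TPM in WT (C57BL/6) to 10.6-15.8 TPM in YAP1 KO, and from 0.592-1.56 TPM in WT (mixed) to 9.45-17.1 TPM in YKTH. Slc1a4, a neutral amino acid transporter of the family of Slc1a2, rose by 1.54 and 1.68. Slc38a3, the glutamine transporter SNAT3, fell by 1.57 and 1.53, from 928-1065 TPM to 393-511 TPM in YAP1 KO and from 1123-1415 TPM to 473-741 TPM in YKTH. Aldh18a1, which leads glutamate to proline and ornithine, rose by 1.12 and 1.25. Aldh18a1 in both models, Slc13a5 in YAP1 KO and Slc1a1 in YKTH were under 1 TPM in every WT liver. They passed the filter only through the knockout livers and could only be called higher. Slc1a1 is counted among the 6 that rose in YKTH.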

How the data were processed

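RNA from frozen whole liver of 12 adult female mice was sequenced. Per the labels and methods, the authors processed reads in CLC Genomics Workbench against GRCm38.p6 and deposited TPM per gene in 1 table for each genetic background, with comparison columns from edgeR within that program (fold changes, p-values), which were not used. TPM keeps no library total, so depth is unknown, and no counts or counting intervals can be given.

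TPM values were divided by a trimmed mean of log ratios (30% of ratios and 5% of levels trimmed at each end), genes with at least 1 TPM in 3 or more livers of a fit were kept, and log2(scaled TPM + 1) was tested with limma 3.58.1 (mean-variance trend, two-sided, R 4.3.3). The Benjamini-Hochberg threshold was 0.05 over all genes tested. Each knockout group was fitted with its own WT group. The difference between the models used all 12 livers, and the WT groups were also compared, so these comparisons share samples. Fold changes are on the log2(scaled TPM + 1) scale, which understates the change of low genes. The fit was tested on simulated data. Single values were also tested by an exact permutation test (scipy 1.17.1). Alternatives were a pseudocount of 0.1, no filter, no scaling, quantile normalization, robust shrinkage, all 12 livers in 1 fit, each liver left out and, added after the data were seen, a block of near mouse numbers.

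The 10 genes, the lists and the tests were chosen with earlier results of these data known. Named from each other list were at most 4 genes with the largest change among those past the threshold in both models, plus genes of defining roles (Rspo3, Wnt2, Wnt9b, Ctnnb1, Tcf7l2, Lgr4, Nkd1, Notum, Sp5, Cyp2e1, Cyp1a2, Cps1, Gls2, Ass1), and the 5 genes most correlated with Glul. A few others (such as Cldn2, Avpr1a, Wnt10a and Cyp2a5) were named after their values were seen, where a count was small. All 10 genes passed the filter in every comparison. No 2 livers held identical values. Copies of the genes were searched with blastn 2.17.0 in the GENCODE M21 transcripts.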

Additional observations from a re-analysis of the deposited data

How the results depend on the processing

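Glul and Slc1a2 stayed past the threshold in the same direction under all 13 alternatives of each model. The number of the 10 genes called was 7 in YAP1 KO and ranged from 3 to 6 with 1 liver left out (4 without LM192, 3 without LM193). It was 4 without scaling, where the median log2 change over all genes was 0.28. In YKTH it was 6 and ranged from 5 to 7 with 1 liver left out; it was 4 without scaling, and 4 (2 higher, 2 lower) with the block of near mouse numbers, which was chosen after seeing the data and leaves LM225 as the only YKTH liver set against WT livers. In YAP1 KO the same block gave 7, and no filter or all 12 livers in 1 fit gave 5. Quantile normalization ended the call of Oat in both models. No gene was called in any alternative for the difference between the models or between the WT groups. No paired analysis was possible because the groups share no replicate numbers and the labels do not say which mice share a litter.

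Among the values of single genes under alternatives, 486 kept direction and side of the threshold, 31 lost the call, 5 gained it and 28 changed sign; the cause was not tested. None of the results that changed sign was past the threshold. Outside the livers left out in turn, these were Rhbg in YAP1 KO with all 12 livers in 1 fit (-0.0048), Lgr5 in YKTH with the block (0.00095) and Rhbg between the WT groups without scaling (0.046). With 1 liver left out, Rhbg in YAP1 KO ranged from -0.17 to 0.34 and Slc13a3 in YKTH from -0.064 to 0.53. The difference between the models ranged from -0.28 to 0.097 for Znrf3, -0.086 to 0.41 for Rnf43, -0.22 to 1.08 for Slc1a2 and -0.077 to 0.61 for Lgr5. Between the WT groups it ranged from -0.17 to 0.15 for Rhbg, -0.29 to 0.29 for Lgr5, -0.29 to 0.059 for Slc1a2, -0.0078 to 0.31 for Axin2, -0.040 to 0.24 for Oat, -0.35 to 0.12 for Tbx3 and -0.33 to 0.044 for Znrf3. The depth of the libraries is unknown, so what it limits could not be assessed.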

Other observations

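Further marker lists moved as follows. Of the 7 hepatocyte markers tested, 2 fell in YAP1 KO (Alb, log2 fold change -0.75, and Ttr, -1.13) and 1 in YKTH (Ttr, -0.93). Of 7 sinusoidal and other endothelial markers, 2 fell in YAP1 KO, and 1 rose and 3 fell in YKTH. Over all genes tested 18.8% were called higher and 18% lower in YAP1 KO, and 19.2% and 19% in YKTH. Kdr, the main VEGF receptor, had log2 fold changes of -0.95 and -0.93. Among other leukocyte markers, Ptprc (0.89 and 0.84) and S100a8 (1.57 and 1.58) rose in each model, of 4 tested in YAP1 KO and 5 in YKTH, by limma with Benjamini-Hochberg adjustment.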
